A study of Mus musculus with 10 samples.

Results

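The cytosolic ribosomal protein genes were taken from a table of transcript levels in medial knee cartilage caps of 10 mice. They were chosen by symbol: protein-coding genes named Rpl or Rps followed by a number, together with Rpsa, Rplp0, Rplp1 and Rplp2, and without pseudogenes. The rule found 84 genes among the 35705 genes of the table, 52 of the large (60S) subunit and 32 of the small (40S) subunit. Fau, whose ribosomal protein is made as a fusion with a ubiquitin-like protein, falls outside the symbol rule and is given beside the members. Levels are in TPM, a transcript's share of its library scaled to a fixed total. With a minimum mean of 1 TPM over the 10 mice, 82 of the 84 genes were tested. Rpl10l was listed at 0 in all 10 mice, and Rpl3l had a mean of 0.752 TPM.

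The study set 5 wild-type mice beside 5 mice lacking the microRNA gene Mir324, called Mir324-null here, with 1 library of total RNA for each mouse. The labels give articular cartilage as the tissue and chondrocyte as the cell type, and give no age, sex, litter or batch. No treatment is named for either group, and the null allele is not described as limited to a cell type. The p-values below measure the spread between these 10 mice.

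Ribosomal proteins form, with the ribosomal RNAs, the particles that translate mRNA, and cells make the proteins of both subunits in matched amounts. Most of their mRNAs begin with a run of pyrimidines next to the cap, the TOP motif, through which the growth-controlling kinase mTOR and the RNA-binding protein LARP1 tune their translation and stability together. In cartilage, ribosomes supply the chondrocyte's output of collagen and proteoglycan. MicroRNAs bind mRNAs mainly through the seed, the bases near their 5′ end, and most known target sites lie in 3′ untranslated regions (UTRs).

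The deleted gene makes 2 mature strands, shown here because the member mRNAs were searched for matches to their seeds, bases 2 to 8, in capitals.
mmu-miR-324-5p: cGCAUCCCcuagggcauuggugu
mmu-miR-324-3p: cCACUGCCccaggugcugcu
They lie at chr11:70012060-70012082 and chr11:70012095-70012114 on the plus strand (RefSeq, GRCm38.p6). The DNA complement of the 5p seed, GGGATGC, was found in the annotated 3′ UTR of 1 of 82 members, Rpl41 (1.22%), against 8.50% of 12601 tested genes with an annotated 3′ UTR. The complement of the 3p seed, GGCAGTG, was found in 2 of 82 members, Rpl21 and Rps24 (2.44%), against 15.4% of those genes. Member 3′ UTRs are short, with a median of 166.5 bases against 1149 bases over the genes searched. They run from 28 bases in Rps12 to 4728 bases in Rps15a. A match is a run of letters and was not tested as a binding site.

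The start of the transcript is the other sequence that members share. RefSeq promoters matched 64 of the 84 members, with 76 annotated starts. A C followed by at least 4 pyrimidines, beginning within 10 bases of the start on the gene's strand, was present at 41 of the 76 member starts (53.9%), against 10093 of 32851 starts in the whole table (30.7%). Windows of 10 bases before and 20 bases from the annotated start are shown, with the longest such run in capitals. They cover every member with a single listed start among the 8 most abundant and the 10 with the smallest p-values, and Rpl39 as the partner of Rpl39l. A shorter run that also meets the rule stands in lower case in Rps27 (ctttc) and in Rpl39 (cctct).
Rpl41: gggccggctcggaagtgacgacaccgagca
Rpl13a: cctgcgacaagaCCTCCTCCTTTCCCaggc
Rps9: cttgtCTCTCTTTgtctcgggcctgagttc
Rps12: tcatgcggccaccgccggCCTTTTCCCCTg
Rps15a: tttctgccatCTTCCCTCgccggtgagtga
Rps27: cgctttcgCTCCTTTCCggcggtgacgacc
Rps3a1: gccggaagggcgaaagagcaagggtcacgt
Rpl9: gggccctgacggattacaagaacgtgatga
Rpl39l: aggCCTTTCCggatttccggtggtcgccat
Rpl39: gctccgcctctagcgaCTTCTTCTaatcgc
The windows of Rpl41 and Rps12 lie at chr10:128549149-128549178 and chr10:23787190-23787219, both on the minus strand. Rpl13a and Rps15a are on the minus strand at chr7:45128726-45128755 and chr7:118116128-118116157, and Rps9 is on the plus strand at chr7:3704031-3704060. Rps27 and Rps3a1 are on the minus strand at chr3:90213629-90213658 and chr3:86142649-86142678. The window of Rpl9 is at chr5:65391412-65391441 (minus), that of Rpl39l at chr16:10170218-10170247 (plus) and that of Rpl39 at chrX:37085203-37085232 (minus). Rpl41, Rps3a1 and Rpl9 have no such run in this window, and the other 7 have at least 1. The marked run in Rpl13a spans 14 bases and those in Rpl39, Rps15a and Rps9 span 8 bases each. In the 250 bases before to 50 after the start, CCGGAA, the core letters of many ETS factor sites, was found on either strand at 36 of 76 member starts (47.4%), against 14.9% of all starts. AAGATGG, letters of the YY1 motif, was found on either strand at 12 starts (15.8%), against 6.34%. TATAAA within 40 bases before the start, on the gene's strand, was found at 1 member start (1.32%), against 2.31%.

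Facts of the whole series that touch these genes are the makeup of the libraries and 1 library that stood apart. The files give TPM and no read counts, so the depth is unknown, and between 54914 and 58929 transcripts had a value above 0 in each library. Wild-type replicate 1 stood apart on the principal component that held 26.7% of the variance. Haemoglobin genes took 11.2 to 19.7% of TPM in wild-type and 15.8 to 26.1% in Mir324-null mice. Chondrocyte markers, of which 7 of 9 passed the filter, were detected in every library, at a summed 1929 to 6145 TPM against 1627 to 2917 TPM. Neutrophil markers summed to far more, 56686 to 112010 TPM against 56243 to 113514 TPM. Blood and marrow RNA was thus a large part of these libraries, and member levels are those of the mixed sample, not of chondrocytes alone. By limma on log2(TPM + 1), with Benjamini-Hochberg adjustment over 13841 genes, 0 genes passed an adjusted p of 0.05, and 1011 were lower and 592 higher at an unadjusted p under 0.05. That split was 888 lower and 875 higher under median ratio scaling, 929 and 884 under quantile normalization, and 591 and 1227 when haemoglobin TPM was removed and the rest rescaled.

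Ribosomal protein genes were among the most abundant mRNAs of these caps. The median of the member means was 1348 TPM, against 13.2 TPM over all genes tested. Of the 84 members, 45 were among the 100 genes with the highest mean, 74 reached 500 TPM and 80 reached 100 TPM. The 8 most abundant members were Rpl41, Rps29, Rpl13a, Rps9, Rps24, Rps12, Rps15a and Rplp1, and together they held 19.6% of member TPM. Rpl41, one of the smallest proteins of the large subunit, stood at 5190, 3785, 3997, 4302 and 3623 TPM in wild-type replicates 1 to 5, and at 3268, 3583, 4059, 3674 and 4097 TPM in Mir324-null replicates 1 to 5. The groups overlapped, with wild-type replicate 1 above all others. The adjusted limma p for Rpl41 was 0.649, at a log2 difference of -0.15 (SE 0.11).

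Summed over the 84 members, the share of TPM was somewhat lower in the Mir324-null mice, with groups that overlapped. It was 14.2, 10.7, 11.6, 12.2 and 11.2% in wild-type replicates 1 to 5 and 9.87, 10.6, 11.1, 10.5 and 11.0% in Mir324-null replicates 1 to 5. Wild-type replicate 1 was the highest and Mir324-null replicate 1 the lowest, and the other 8 mice lay between 10.5 and 12.2%. The means were 12.0% ± 1.35 (SD, n = 5) and 10.6% ± 0.482 (SD, n = 5), a difference of -1.35 percentage points, and of -0.802 without wild-type replicate 1. No test was made on the sum. In these bulk samples, fewer cells of a type and less RNA per cell cannot be told apart.

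**Figure D1:**
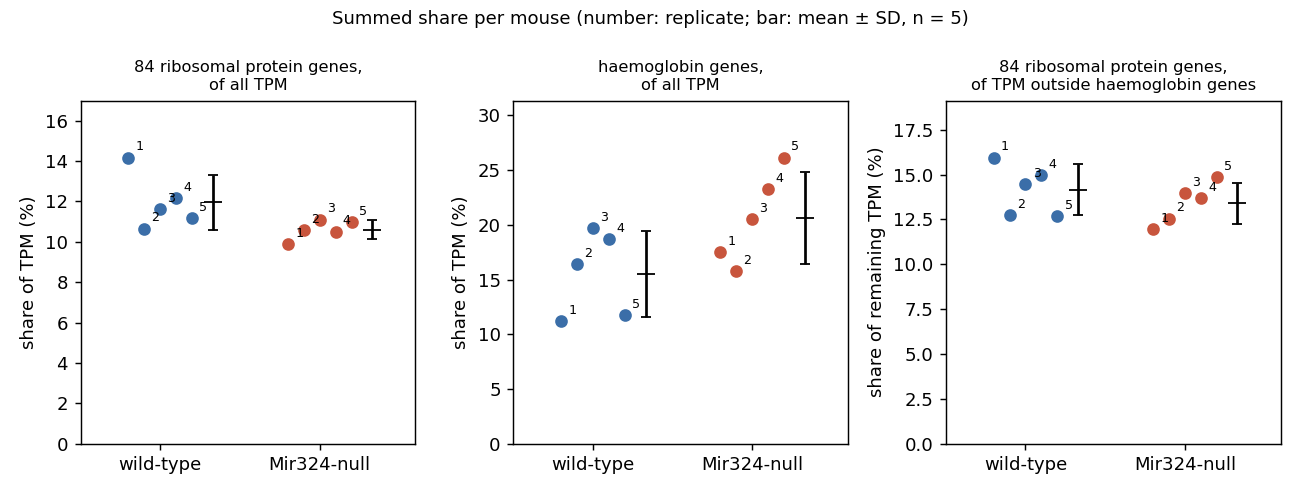
Points are mice, labelled by replicate number, and bars are the mean ± SD (n = 5). The vertical axes give the percent of TPM held by the 84 ribosomal protein genes (left), by the haemoglobin genes (middle), and by the 84 genes after haemoglobin TPM was removed (right). In each panel the genotypes overlap, and the difference in mean member share goes from -1.35 points of all TPM to -0.754 points of the remaining TPM.

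Both subunits had a lower mean share in Mir324-null mice. Large subunit genes held 6.56% ± 0.729 of TPM in wild-type and 5.85% ± 0.283 in Mir324-null mice (SD, n = 5 each). Small subunit genes held 5.40% ± 0.622 and 4.75% ± 0.201 (SD, n = 5 each). The log2 ratio of the small to the large subunit sum was -0.281 ± 0.00693 and -0.300 ± 0.0132 (SD, n = 5 each). These SDs are smaller than those of the mean log2(TPM + 1) over the tested members, 0.148 and 0.0632. The ratio differed by -0.0185, and all 5 Mir324-null mice lay below the wild-type mean. Only Mir324-null replicate 1 reached the wild-type range. This difference was small beside that of the sums in size, not in spread, and was not tested.

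The share of haemoglobin genes, which mark red cells and their precursors, differed between the same libraries. It was 11.2, 16.4, 19.7, 18.7 and 11.7% in wild-type replicates 1 to 5 and 17.5, 15.8, 20.5, 23.3 and 26.1% in Mir324-null replicates 1 to 5. Wild-type replicate 1, with the highest member share, had the lowest haemoglobin share. Other mice did not follow that order. Wild-type replicate 5 had 11.7% haemoglobin with a member share of 11.2%. Mir324-null replicate 5, with the highest haemoglobin share, had a member share of 11.0%, and Mir324-null replicate 1, with the lowest member share, had 17.5% haemoglobin. With haemoglobin removed from the denominator, the member share was 15.9, 12.7, 14.5, 15.0 and 12.7% in wild-type replicates 1 to 5 (mean 14.2% ± 1.42, SD, n = 5) and 12.0, 12.5, 14.0, 13.7 and 14.9% in Mir324-null replicates 1 to 5 (mean 13.4% ± 1.15, SD, n = 5). The groups overlapped over most of their range. The difference was then -0.754 percentage points, and -0.308 without wild-type replicate 1 as well, an alternative chosen after the data were seen. With S100a8, S100a9 and mitochondrial genes removed from the denominator too, it was -1.06 percentage points, and -0.636 without wild-type replicate 1, and the groups overlapped.

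Marker genes of other cell types also differed in summed level, and no listed marker in the table was at 0 in every library. Of the erythroid markers, 9 of 9 had a higher estimate in Mir324-null mice, with 112758 to 198993 TPM in wild-type and 159413 to 263821 TPM in Mir324-null mice. Proliferation markers were higher in 8 of 8 (979 to 1296 against 1194 to 1364 TPM). These were the sets whose every tested gene had a higher estimate in Mir324-null mice, while the sets of bone cells lay the other way. Osteoblast and osteocyte markers were lower in 10 of 10 (5407 to 12907 against 3081 to 6146 TPM), osteoclast markers in 7 of 7 (1438 to 3251 against 944 to 1940 TPM) and chondrocyte markers in 6 of 7. B lineage markers were lower in 9 of 9 (488 to 603 against 268 to 535 TPM) and adipocyte markers in 5 of 5 (322 to 543 against 233 to 397 TPM). The remaining sets were mixed in direction. Neutrophil markers were lower in 7 of 10 (56686 to 112010 against 56243 to 113514 TPM), fibroblast markers in 3 of 7 (576 to 2025 against 532 to 1292 TPM) and skeletal muscle markers in 1 of 3 (14.7 to 17.0 against 15.4 to 53.6 TPM). None of these markers passed the adjusted p in the limma fit, and those with an unadjusted p under 0.05 numbered 6 erythroid, 5 proliferation, 9 osteoblast, 7 osteoclast, 5 chondrocyte, 5 B lineage and 4 adipocyte markers, each in the direction of its set. Over all genes tested, 7.3% were lower and 4.28% higher at that p. Their part in the member share was not tested.

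Gene by gene, 0 of 82 members passed an adjusted p of 0.05 in limma (0.0% of all 13841 genes tested passed), and the smallest adjusted p of a member was 0.308. At an unadjusted p under 0.05, 14 of 82 members were lower in Mir324-null mice (17.1%), against 7.3% of all genes tested, and 0 were higher, against 4.28%. Of the 82 estimates, 81 lay below 0 in the deposited TPM, against 60.0% of all genes. The same count was 79 under median ratio scaling (49.3% of all genes), 75 without haemoglobin (42.8%) and 45 under quantile normalization (49.2%). Lower estimates thus kept a large lead over higher ones under median ratio scaling and without haemoglobin, and a small lead under quantile normalization. Members varied together across mice, so these counts are not 82 separate observations, and a shift of a few mice can move them all. The median member difference was -0.17 on the log2 scale with quartiles of -0.19 and -0.13, and the median over all genes was -0.045. The member median was -0.11 under median ratio scaling, -0.078 without haemoglobin and -0.014 under quantile normalization. In the same order, the median over all genes was 0.0032, 0.035 and 0.0038. The count of 14 became 1 under each of these scalings, against 6.42% of all genes for median ratio scaling, 4.16% without haemoglobin and 6.71% for quantile normalization. Under the last, 1 member was higher, against 6.39% of all genes. Single mice also moved this count in both directions. When they were left out in turn, it became 3 (wild-type replicate 4 or Mir324-null replicate 1), 6 (Mir324-null replicate 2), 8 (wild-type replicate 1), 9 (Mir324-null replicate 3 or 4) and 43 (wild-type replicate 2).

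**Figure D2:**
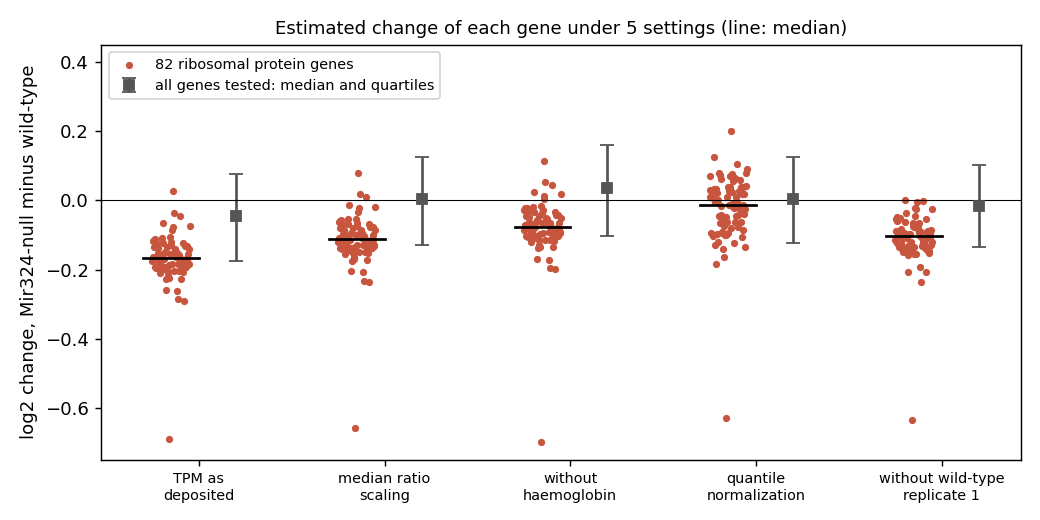
Each red point is the log2 difference (Mir324-null minus wild-type, from log2(TPM + 1)) of 1 of 82 ribosomal protein genes under the setting named on the horizontal axis. Black lines are their medians and grey squares with bars are the median and quartiles of all genes tested. The member median lies at -0.17 in the deposited TPM and at -0.014 under quantile normalization, where 45 of 82 estimates lie below 0.

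By subunit, the 50 large subunit genes tested had a median difference of -0.16, with 49 estimates below 0 and 7 lower at an unadjusted p under 0.05. The 32 small subunit genes had a median of -0.18, with 32 estimates below 0 and 7 lower at an unadjusted p under 0.05. Over all genes tested, 60.0% of estimates lay below 0 and 7.3% were lower at that p, and the 14 calls of both subunits together became 1 under each of the other scalings. Small subunit differences ran from -0.29 to -0.045. Under quantile normalization the direction of single members was mixed in both subunits, with estimates above 0 for Rps9 (0.080) and Rpl28 (0.080) and below 0 for the member median.

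Among large subunit genes, those with the smallest p-values after Rpl39l were Rpl35a, Rpl9, Rpl34 and Rpl23a. Rpl35a, a subunit whose human counterpart is among the genes mutated in Diamond-Blackfan anaemia, lies at chr16:33056453-33060189 (GRCm38, plus strand). Its level was 1920, 1533, 1519, 1774 and 1606 TPM in wild-type replicates 1 to 5 and 1323, 1395, 1354, 1393 and 1485 TPM in Mir324-null replicates 1 to 5. All 5 Mir324-null mice lay below all 5 wild-type mice. The log2 difference was -0.26 (SE 0.084), with an adjusted limma p of 0.325.

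Rpl23a, which sits near the exit of the peptide tunnel, was at 2327, 1853, 1883, 1992 and 1815 TPM in wild-type and 1556, 1706, 1756, 1698 and 1786 TPM in Mir324-null replicates 1 to 5. Rpl34 was at 1468, 1202, 1234, 1383 and 1274 TPM and at 1050, 1139, 1164, 1179 and 1170 TPM in the same order. In both genes the groups did not overlap, although the gap between the nearest mice was small beside the range of either group. Their log2 differences were -0.21 (SE 0.086, adjusted limma p 0.385) and -0.20 (SE 0.079, adjusted limma p 0.372). For Rpl9 the means were 1215 ± 115 and 1051 ± 33.2 TPM (SD, n = 5 each) and the difference was -0.21 (adjusted limma p 0.368).

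Rps25, of the small subunit and chosen after its values were seen, was the fourth member whose groups did not overlap. It was at 1962, 1450, 1555, 1656 and 1503 TPM in wild-type and 1290, 1421, 1431, 1449 and 1412 TPM in Mir324-null replicates 1 to 5. Its highest Mir324-null mouse and its lowest wild-type mouse differed by less than 1 TPM. All Mir324-null mice were below all wild-type mice in these 4 of 82 members (4.88%), against 1.06% of all genes tested. The opposite order was seen in 0 of 82 members, against 0.881% of all genes. With haemoglobin TPM removed, 0 of 82 members had all Mir324-null mice below all wild-type mice, against 0.368% of all genes.

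Rps15a had the smallest p of the small subunit genes. This protein of the 40S subunit is encoded at chr7:118104372-118116188 (GRCm38, minus strand), and its start window holds the run CTTCCCTC shown above. Its level was 2815, 2181, 2576, 2415 and 2288 TPM in wild-type replicates 1 to 5 and 1907, 1940, 2034, 1949 and 2205 TPM in Mir324-null replicates 1 to 5. The groups overlapped only through Mir324-null replicate 5, which lay above wild-type replicate 2. The log2 difference was -0.29 (SE 0.087), with an adjusted limma p of 0.316.

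Rps27, a zinc-binding protein of the 40S subunit, stood at 2737, 2017, 1956, 2309 and 1929 TPM in wild-type and 1609, 1695, 1840, 1741 and 2014 TPM in Mir324-null replicates 1 to 5. Mir324-null replicate 5 lay within the wild-type range and the other 4 below it. The log2 difference was -0.29 (SE 0.11), with an adjusted limma p of 0.358. Rps14, of the 40S platform, had means of 1462 ± 197 and 1214 ± 97.2 TPM (SD, n = 5 each) and a difference of -0.26 (adjusted limma p 0.366). Rps27a, made as a fusion with ubiquitin, had a difference of -0.18, and Rps3a1 one of -0.19 (adjusted limma p 0.391 and 0.392).

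The other abundant members had larger p-values. Log2 differences were -0.15 for Rplp1, -0.16 for Rps12, -0.18 for Rps24, -0.14 for Rps9, -0.19 for Rpl13a and -0.17 for Rps29. Of these, Rps24 alone had an unadjusted p under 0.05 (0.0493, adjusted limma p 0.430). For Rpl13a, known in immune cells as a subunit that can leave the ribosome and silence inflammatory mRNAs, levels were 3554, 2684, 2825, 3016 and 2703 TPM in wild-type and 2360, 2503, 2678, 2568 and 2773 TPM in Mir324-null replicates 1 to 5. The 2 ranges overlapped from 2684 to 2773 TPM.

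The P-stalk, the flexible arm of the large subunit that recruits elongation factors, is built from Rplp0, Rplp1 and Rplp2. Rplp0, its base, stood at 2325, 1867, 2256, 2117 and 2103 TPM in wild-type and 1904, 2184, 2285, 1953 and 2069 TPM in Mir324-null replicates 1 to 5. The ranges nearly coincided. Its difference was -0.037 (SE 0.086, adjusted limma p 0.932) in the deposited TPM, and was above 0 under median ratio scaling (0.018), without haemoglobin (0.053) and under quantile normalization (0.20). Rplp1 and Rplp2, the acidic partners, had differences of -0.15 and -0.14 (adjusted limma p 0.632 and 0.622). Rpsa, the 40S protein also known as the laminin receptor, had a difference of -0.073, with means of 1500 ± 137 and 1423 ± 68.7 TPM (SD, n = 5 each).

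Fau, the fusion gene outside the rule, lay close to the members. Its difference was -0.18 (adjusted limma p 0.542), with means of 1825 ± 286 TPM in wild-type and 1601 ± 74.7 TPM in Mir324-null mice (SD, n = 5 each). Adding it to the members, an alternative chosen after the data were seen, moved the difference in summed share from -1.35 to -1.38 percentage points.

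Members varied together across mice. Wild-type replicate 1 was the highest of the 10 libraries for 79 of 82 members (96.3%), against 33.6% of all genes tested. Mir324-null replicate 1 was the lowest for 66 of 82 members (80.5%), against 11.9% of all genes. The SD of log2(TPM + 1) within a genotype had a median of 0.129 over the members, against 0.176 over the 1114 genes whose mean reached 100 TPM and 0.240 over all genes tested. When the mean of the members was subtracted from each library, the median SD of the members was 0.0536, that of the abundant genes 0.214 and that of all genes 0.255. Members enter that mean, so the lower value is a description and not a test.

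**Figure D3:**
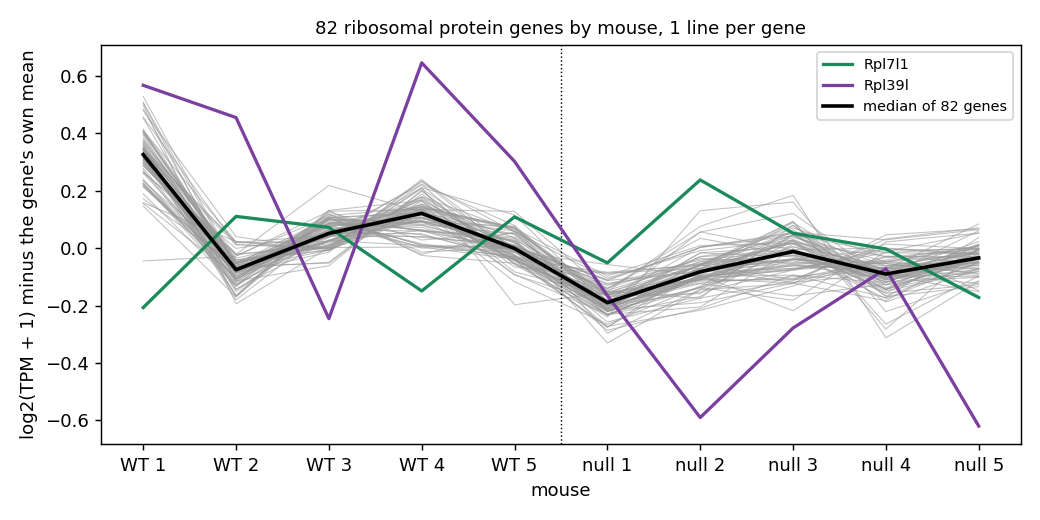
Each grey line is 1 of 82 ribosomal protein genes, plotted by mouse as log2(TPM + 1) minus the gene's own mean over the 10 mice, and the black line is their median. Most lines follow the median, highest in wild-type replicate 1 and lowest in Mir324-null replicate 1, while Rpl39l (purple, mean 1.32 TPM) and Rpl7l1 (green) depart from it.

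The least variable members within a genotype were Rps9 (SD 0.0724), Rps4x (0.0836), Rps27a (0.0848) and Rpl3 (0.0851). Rps9, a 40S protein placed early in assembly, was at 3002, 2733, 2685, 2897 and 2820 TPM in wild-type and 2515, 2706, 2721, 2413 and 2463 TPM in Mir324-null replicates 1 to 5. Only Mir324-null replicates 2 and 3 reached the wild-type range. The most variable members were Rpl39l (0.306), Rps21 (0.195), Rps28 (0.194) and Rpl28 (0.193). Wild-type replicate 1 set much of the spread in the last 3, at 1755 TPM for Rps21, 2493 TPM for Rps28 and 2055 TPM for Rpl28. In the same order, the rest of the wild-type mice spanned 1164 to 1387 TPM, 1621 to 2016 TPM and 1271 to 1458 TPM.

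Differences between members were also fitted relative to their own mean, an alternative chosen after the data were seen. This scaling moved the median over all genes from -0.045 to 0.12. By limma on these values, 0 of 82 members passed an adjusted p of 0.05, and 1 had an unadjusted p under 0.05 (Rpl39l), against 13.6% of all genes tested. The member count at an unadjusted p under 0.05 ran from 0 to 3 when single mice were left out, with 3 for wild-type replicate 3, 2 for Mir324-null replicate 5, and 0 for wild-type replicates 2 and 4 and Mir324-null replicate 2. Estimates lay below 0 for 40 of 82 members, against 26.1% of all genes. Members enter the mean that was subtracted, so their estimates centre near 0 by construction. The shares over all genes are therefore no yardstick for the member counts in this fit. Rplp0 lay 0.13 above the member mean difference (unadjusted p 0.0712) and Rps15a 0.12 below it (-0.12, unadjusted p 0.0751), as estimated by limma.

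Several ribosomal proteins have a second gene copy, whose product can replace the main protein in some tissues, and 6 pairs were abundant enough to compare. For each mouse the log2 ratio of the copy to its partner was taken from TPM + 1. An exact 2-sided permutation test over 5 against 5 mice cannot give a p below 0.00794. The values were adjusted over the 6 pairs, and 0 of 6 passed 0.05.

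Rpl39l, at chr16:10170226-10174911 (GRCm38, plus strand), is a copy of Rpl39 best known from male germ cells. Its level was 2.28, 2.04, 0.868, 2.47 and 1.73 TPM in wild-type and 0.975, 0.471, 0.826, 1.11 and 0.441 TPM in Mir324-null replicates 1 to 5. Wild-type replicate 3 lay within the Mir324-null range and the other 4 wild-type mice above it. The log2 difference in limma was -0.69 (SE 0.20), with an adjusted p of 0.308. Its mean of 1.32 TPM passed the filter of 1 TPM only through the wild-type mice. All Mir324-null mice but replicate 4 lay below 1 TPM, so its difference and its p are those of a gene kept for its wild-type level. Rpl39 itself was at 1135, 862, 965, 1103 and 978 TPM in wild-type and 800, 876, 901, 897 and 937 TPM in Mir324-null replicates 1 to 5, with groups that overlapped. The log2 ratio of Rpl39l to Rpl39 differed by -0.50 (exact permutation p = 0.0476, 0.286 adjusted over the 6 pairs), and in 5 of 5 Mir324-null mice it lay below the wild-type mean. Rpl39l took 0.185% ± 0.0578 of the pair in wild-type and 0.0875% ± 0.0362 in Mir324-null mice (SD, n = 5 each). At this level the pseudocount matters, and with 0.1 in place of 1 the ratio differed by -1.004.

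**Figure D4:**
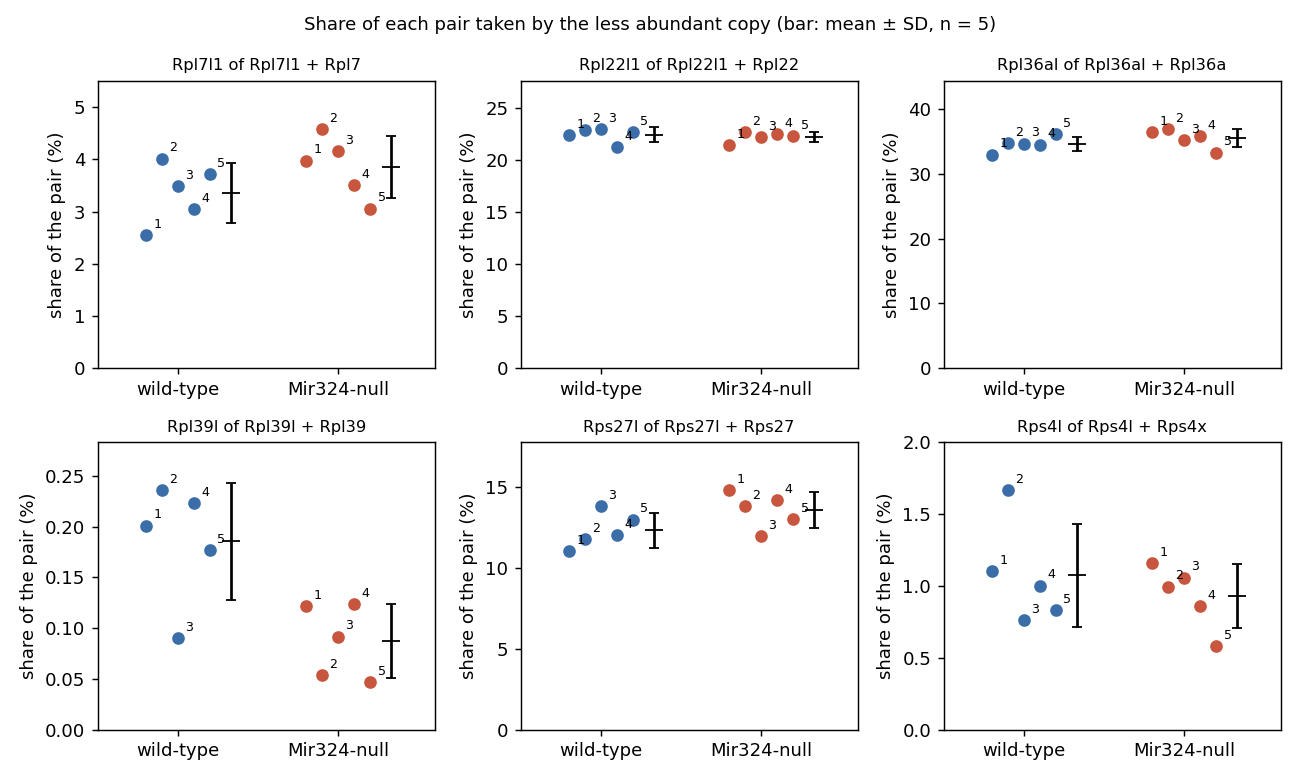
Points are mice, labelled by replicate number, and bars are the mean ± SD (n = 5). The vertical axes, which start at 0 and differ between panels, give the percent of the pair's TPM that the less abundant copy held, from about 0.0875 to 0.185% for Rpl39l to 34.6 to 35.5% for Rpl36al (group means). The genotypes overlap in every panel.

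The other copies had larger p-values. Rps27l, a p53-induced copy of Rps27, held 12.3% ± 1.07 of its pair in wild-type and 13.6% ± 1.10 in Mir324-null mice (SD, n = 5 each). Its log2 ratio differed by 0.16 (exact permutation p = 0.111, 0.333 adjusted over the pairs). Rpl7l1, a copy of Rpl7 linked to early assembly of the large subunit, was the only tested member with an estimate above 0 in the deposited TPM (0.026), which turned when wild-type replicate 1 (-0.023), wild-type replicate 4 (-0.0085) or Mir324-null replicate 2 (-0.031) was left out. It was at 47.5, 59.5, 57.9, 49.5 and 59.4 TPM in wild-type and 53.1, 65.1, 57.1, 54.9 and 48.7 TPM in Mir324-null replicates 1 to 5. Its ratio to Rpl7 differed by 0.21 (exact permutation p = 0.230, 0.405 adjusted).

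Rpl36al held 34.6% ± 1.11 of its pair with Rpl36a in wild-type and 35.5% ± 1.41 in Mir324-null mice (SD, n = 5 each), the largest share of a copy among the 6 pairs. Its log2 ratio differed by 0.059 (exact permutation p = 0.270, 0.405 adjusted). Rpl22l1, a copy that binds RNA and cross-regulates Rpl22, held 22.5% ± 0.721 and 22.3% ± 0.474 of its pair (SD, n = 5 each). The ratio differed by -0.018 (exact permutation p = 0.563, 0.563 adjusted). Rps4l, annotated as a pseudogene and no member, held 1.07% ± 0.358 and 0.932% ± 0.224 of its pair with Rps4x (SD, n = 5 each). The ratio differed by -0.17 (exact permutation p = 0.540, 0.563 adjusted) and by 0.000148 without wild-type replicate 2.

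Rpl3l, a copy of Rpl3 known from striated muscle, stayed below the filter and was not tested. It was at 1.05, 0.762, 0.913, 0.944 and 0.972 TPM in wild-type and 0.574, 0.495, 0.696, 0.559 and 0.561 TPM in Mir324-null replicates 1 to 5. All Mir324-null mice lay below all wild-type mice at these low levels. Rpl10l, a copy of Rpl10 known from male meiosis, was listed at 0 in all mice, while Rpl10 had means of 1712 ± 189 and 1510 ± 72.9 TPM (SD, n = 5 each).

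Ribosomal protein genes are also a source of transcripts that the annotation does not call protein-coding, and many of their introns host small nucleolar RNAs. In the member genes, 176 such transcripts were retained-intron forms, 65 were processed transcripts and 25 were targets of nonsense-mediated decay. They took 23.9% ± 0.384 of member TPM in wild-type and 24.0% ± 0.267 in Mir324-null mice (SD, n = 5 each). The share differed greatly between genes and little between mice. Means were 99.7% in wild-type and 99.8% in Mir324-null mice for Rpl37, 98.6 and 98.5% for Rps20, 96.4 and 96.7% for Rps26, 93.0 and 93.5% for Rpl27a, and 92.1 and 92.3% for Rpl23. These genes were chosen after their values were seen. Short transcripts that share most of their sequence divide the same reads by estimation, and the part of this in the shares was not tested.

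**Figure D5:**
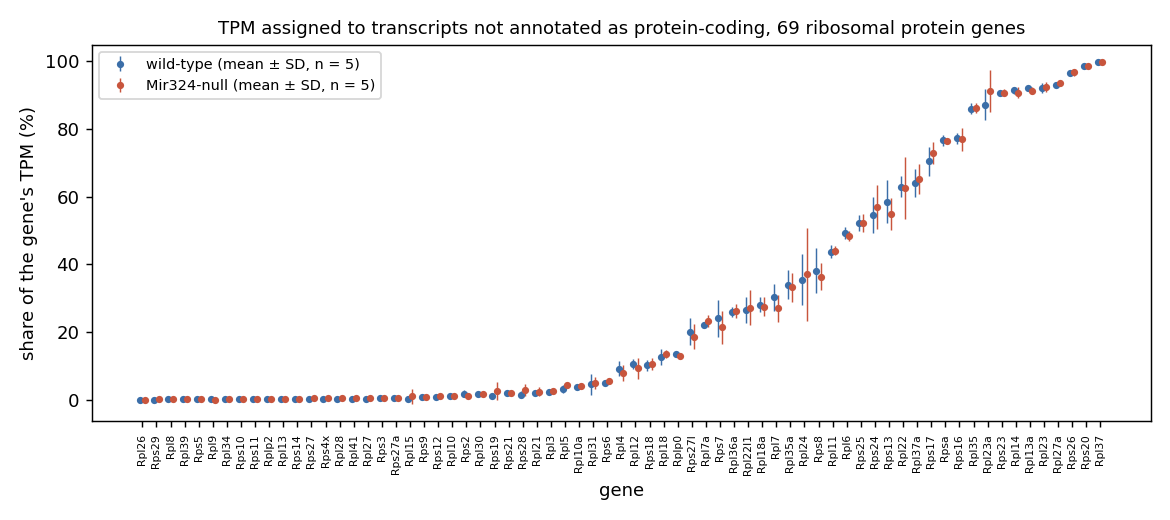
For each of 69 ribosomal protein genes along the horizontal axis, points give the percent of the gene's TPM in transcripts not annotated as protein-coding, as the mean ± SD of 5 wild-type (blue) and 5 Mir324-null (red) mice. The share runs from near 0 to 99.8% in Rpl37, and the genotypes lie close together in each gene.

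The ratio of these transcripts to the protein-coding ones could be tested in 69 members, among 5774 genes. In limma, 0 of 69 members passed an adjusted p of 0.05 (0.0173% of all genes tested), and the smallest adjusted p of a member was 0.998. The count at an unadjusted p under 0.05 was also 0 of 69, against 4.75% of all genes, and it was 2 when wild-type replicate 1 or Mir324-null replicate 4 was left out and 1 when wild-type replicate 2 or 5 was. Of the 69 estimates 26 lay below 0 (37.7%), against 47.7% of all genes. Processed copies of these genes are a further limit, since reads can be split among near-identical sequences. Pseudogenes named after members numbered 300 in the table, and 97 of them passed the filter. Together they held 0.553% of TPM in wild-type and 0.491% in Mir324-null mice.

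Other genes of the translation machinery were summarised by lists. Of 22 translation factors and other mRNAs of the TOP class, 18 had estimates below 0, with a median of -0.072, and 0 passed the adjusted p in limma. At an unadjusted p under 0.05, 1 was lower and 1 higher: Tpt1, a growth-related TOP mRNA, at -0.21, and Pabpc1, the poly(A)-binding protein, at 0.22. The median of this list was 0.018 without haemoglobin. Of 40 ribosome assembly genes, 23 were below 0, with a median of -0.039, and 0 had an unadjusted p under 0.05 in limma. The smallest p-values there belonged to Gnl3 (-0.19), Taf1d (-0.19), Riok2 (-0.19) and Ubtf (0.18).

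Of 22 tested genes that control translation with growth, 13 were below 0, with a median of -0.0096, and 0 passed the adjusted p in limma. Those with an unadjusted p under 0.05 were Ddit4, an mTOR inhibitor induced by stress, at -0.57, Mxd4, a MYC antagonist, at -0.34, and Myc at 0.29. Of 78 mitochondrial ribosomal protein genes, 58 were below 0, with a median of -0.076 in the deposited TPM and 0.013 without haemoglobin. In limma 0 of 78 passed the adjusted p, and 3 were lower at an unadjusted p under 0.05, Mrps6 (-0.41), Mrps33 (-0.24) and Mrpl27 (-0.35). For all 4 lists the shares over all genes tested are 60.0% below 0, and 7.3% lower and 4.28% higher at an unadjusted p under 0.05, so that 3 of 78 is a smaller share than that of all genes. The cytosolic members had a median of -0.17 and -0.078 in those settings, and the difference between the 2 sets was not tested.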

How the data were processed

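Total RNA from the cartilage caps of 5 wild-type and 5 Mir324-null mice was sequenced after a low-input library kit, per the labels' protocols. The submitters' processing notes name kallisto and DESeq2, without versions, and the build GRCh38, although the identifiers in the table are mouse Ensembl transcripts. The authors deposited TPM per transcript and mouse. TPM holds no read counts, so depth is unknown, no count model was used, and each value is relative to all other transcripts of its library.

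Of 116912 transcripts, 115440 matched GENCODE M21 (GRCm38) after the version was dropped, and TPM was summed per gene. The 1472 unmatched transcripts held 0.275 to 0.356% of TPM. The 13841 genes whose mean reached 1 TPM were fitted with limma 3.58.1 in R 4.3.3 on log2(TPM + 1), with a mean-variance trend, 2-sided, adjusted by Benjamini-Hochberg over all genes tested. Fold changes on this scale are understated for low genes. Paralog ratios used an exact permutation test over every split of the mice, run in Python 3.11.15. The fits were tested on simulated data in which genes varied independently and the added changes were larger than the median member difference. That run does not cover small changes in genes that vary together. Sums over members had no test.

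The members, the 4 gene lists, the 10 marker lists and the tests were chosen with earlier results of these data known. Members named with values were the 8 with the highest mean, the 10 with the smallest p, the paralog pairs, the 4 most and the 4 least variable, Rpsa, Rplp0, Rplp1, Rplp2 and Fau, and from each list up to 4 genes with the smallest p. The marker Ahsp and the listed RNAs Gas5 and Snhg1 were not analysed here, and 1 gene outside the members is not reported here. Alternatives were median ratio and quantile scaling, removal of haemoglobin, another pseudocount (0.1), a filter of 5 TPM or none, array weights, protein-coding transcripts alone, a replicate block, and each mouse left out. Sequences are from RefSeq (GRCm38.p6).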

Additional observations from a re-analysis of the deposited data

Results flagged for a closer look

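In 3 of 94 groups of 5 values examined, 1 mouse lay far from the other 4, and chance gives about 1 in 20 such gaps. Rps4x had 1283 TPM in Mir324-null replicate 1, below the other 4 Mir324-null mice, with a gap of 0.735 of the group's range. Rpl28 had 2055 TPM in wild-type replicate 1, above the other 4, with a gap of 0.761 of the range. Fau had 2328 TPM in wild-type replicate 1, above the other 4, with a gap of 0.806 of the range.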

How the results depend on the processing

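The count of 0 members past an adjusted p of 0.05 in limma (14 at an unadjusted p under 0.05) was the same under all 19 alternatives run, and 0 of 682 estimates of the 36 named genes passed it, with a lowest adjusted p of 0.107. The count of 14 lower members was 1 under median ratio scaling, quantile normalization or rescaling without haemoglobin, and 3 to 43 with single mice left out. Replicate numbers showed no sign of pairing: same-numbered mice had correlations of their deviations from -0.144 to 0.0564, and 0 of 5 were most alike their own number. These values cannot exclude a pairing in the design, which the labels do not give. A fit with the replicate number as a block gave 3 lower members, and 2 isoform ratios at an unadjusted p under 0.05. Over all genes, 591 were lower and 1227 higher without haemoglobin, against 1011 and 592, and leaving out single mice gave 620 to 1355 lower genes and 0 to 1 past the adjusted p. Leave-one-out isoform counts ran from 0 to 2, counts relative to the member mean from 0 to 3, and the median member difference from -0.21 to -0.10. Under quantile normalization 45 of 82 estimates lay below 0, with a median of -0.014. There the estimate turned for Rplp1 (0.076), Rps12 (0.054), Rps24 (0.028), Rps9 (0.080), Rpl13a (0.011), Rpl23a (0.022), Rps27a (0.037), Rps3a1 (0.039), Rpl3 (0.072), Rpl10 (0.030), Rps4x (0.018), Rpl28 (0.080), Rps28 (0.018), Rpsa (0.091), Rplp0 (0.20), Rplp2 (0.024) and Fau (0.015). Other turns were Rplp0 (0.018) under median ratio scaling, Rpl3 (0.023), Rpsa (0.017) and Rplp0 (0.053) without haemoglobin, Rpl7l1 with array weights (-0.025) and in leave-one-out fits (-0.031 to 0.072, below 0 without wild-type replicate 1 or 4 or Mir324-null replicate 2), Rpl28 in leave-one-out fits (-0.17 to 0.0021, the last without wild-type replicate 1), and the ratio of Rps4l to Rps4x, which ran from -0.27 to 0.000148. The summed share difference was -0.308 percentage points without haemoglobin and wild-type replicate 1. The causes were not tested. With no counts deposited, the precision of low genes such as Rpl39l and Rpl3l is unknown.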
